A study of Mus musculus with 2 samples.

Results

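The genes described here are 39 genes of cardiac muscle, picked by symbol from the 33640 genes in a table of mitral valve RNA. No measured value enters that rule, but the list was drawn up with earlier results of these data known. They fall into 3 atrial genes (Myl4, Myl7 and Sln), 4 ventricular genes (Myl2, Myl3, Myh7 and Irx4) and 32 genes used by the muscle of all chambers, and all 39 were found in the table. Mitral valves were taken at 5 months of age from wild-type (WT) mice and from mice of the genotype Fbn1C1039G/+, which are heterozygous for a missense allele of the fibrillin-1 gene that is used as a model of Marfan syndrome. Tissue from 8 hearts of each genotype, male and female mixed, was pooled before RNA extraction and gave 1 library, so each genotype is a single amplified and sequenced pool with no replicate. No test or error can therefore be given, and every difference below is between these 2 libraries. The study compares the valves of the 2 genotypes, and the muscle genes are given for their level in each pool, by chamber.

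Cardiac muscle contracts when calcium released from the sarcoplasmic reticulum lets myosin, the thick filament motor, pull on actin in the thin filament, where troponin and tropomyosin act as the calcium switch. Atrial and ventricular muscle build the same sarcomere from partly different parts, and the myosin light chains are the usual marker of chamber: Myl7 and Myl4 in the atrium, Myl2 and Myl3 in the ventricle. The mitral leaflets are mainly connective tissue. They hang from the annulus between left atrium and left ventricle, atrial muscle reaches into their base, and their tendinous cords end on the papillary muscles of the ventricle.

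Values are TPM, transcript abundance scaled for transcript length and for the library total, so that levels can be compared between genes. How deeply the pools were sequenced is unknown, since TPM keeps no record of it. Paired values are given in the order wild type, mutant. A difference is on the log2(TPM + 1) scale, with the wild-type value subtracted from the mutant value, a scale that understates differences of low genes. The columns summed to 999964 and 999945 TPM. The connective tissue markers that define valve tissue were abundant, with the proteoglycan gene Dcn at 11409 and 9304 TPM. Other cell types differed between the same 2 pools. The 7 red blood cell markers summed to 6804 and 688 TPM, the 9 T cell markers to 142 and 64.2 TPM, the 8 neutrophil and monocyte markers to 39.9 and 189 TPM, and 4 Y-linked genes, which are read only from male tissue, to 101 and 143 TPM. Their part in the differences below was not tested.

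Cardiac muscle RNA was present in both pools and lower in the mutant pool. The 39 genes together took 5022 TPM, or 0.502% of the wild-type library, and 3590 TPM, or 0.359% of the mutant library, which is 71.5% of the wild-type sum. That sum includes Tpm1 (553 and 406 TPM), Atp2a2 (284 and 249 TPM) and Gja1 (63.7 and 65.9 TPM), which other cell types also make. The sum of 12 interstitial and fibroblast markers was 76.5% of its wild-type value, though the median difference of those markers was 0.01. Of the 37 members whose TPM averaged 1 or more over the 2 pools, 30 had less TPM in the mutant pool, where 35.1% of all 17004 genes above this limit had less. The median difference of these members was −0.39, against 0.14 over all those genes. In pooled bulk tissue, fewer muscle cells and less RNA per muscle cell cannot be told apart.

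Most of these differences were smaller than 2-fold. With a difference of 1 in size as the limit, 1 of the 37 members (Myl2) was at least 2-fold lower, against 1.72% of all genes, and none was at least 2-fold higher, against 4.81% of all genes. With 1.5-fold as the limit, 11 members were lower, where 4.73% of all genes were, and 1 (Cacna1c) was higher, where 15.4% of all genes were. Of the 29 members averaging 10 TPM or more, 10 were lower by 1.5-fold, against 2.58% of all genes of that abundance. The 11 lower members were Myl2, Myl3, Myh7, Tnnc1, Acta1, Csrp3, Xirp1, Pln, Ckm, Mb and Fabp3. On the log2(TPM + 1) scale Acta1, Fabp3 and Myh7 lay just short of the 2-fold limit. In TPM without the added 1, Acta1 held 47.6% and Xirp1 44.9% of the wild-type level, against 49.4% for Myl2. Tcap, not among the 11, was 1.51-fold lower in TPM.

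**Figure D1:**
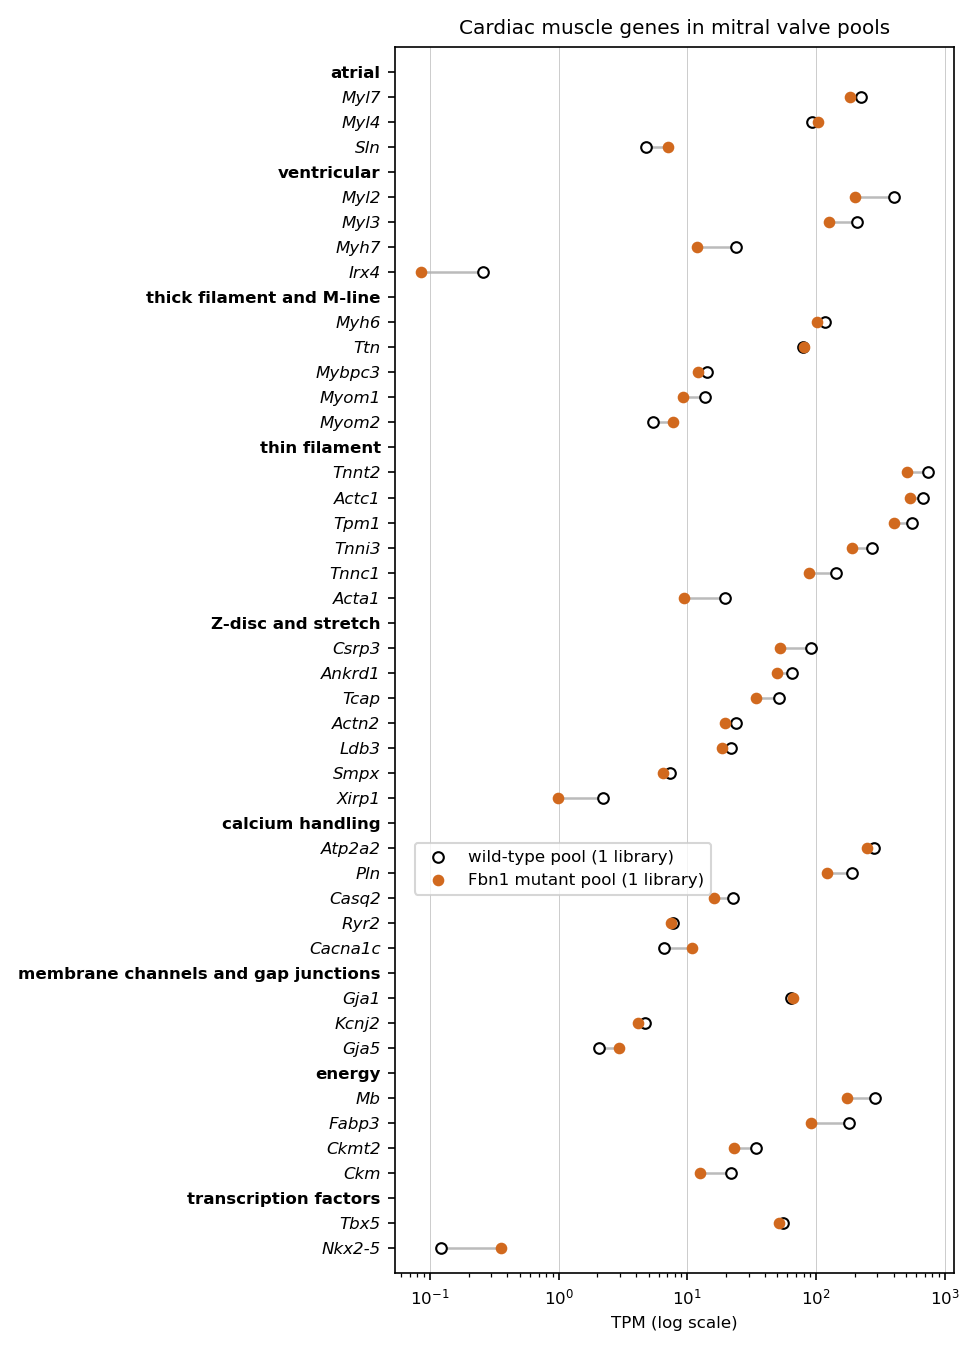
TPM (log axis) of all 39 members in the wild-type pool (open circles) and the Fbn1 mutant pool (filled circles), 1 library each, ordered by role. The filled circle lies to the left for Myl2, Myl3 and Myh7 and for all 6 thin filament genes, and to the right for Myl4 and Sln.

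The ventricular genes had the lowest median of the roles among the members. Myl2, the ventricular regulatory light chain of myosin, was at 407 and 201 TPM, a difference of −1.01, so that the mutant pool held 49.4% of the wild-type level. Its mm10 position is 122100951 to 122113472 of chromosome 5, plus strand. Myl3, the ventricular essential light chain, was at 207 and 127 TPM, a difference of −0.70. Myh7, the slow beta-myosin heavy chain, which adult mouse ventricle uses little, was at 23.8 and 12.0 TPM, a difference of −0.93. All 3 of these genes were lower in the mutant pool by at least 1.5-fold, with a median of −0.93. Irx4, a transcription factor of ventricular muscle, was at 0.261 and 0.0848 TPM, too low in both pools to be read as a difference. The 4 genes together took 637 and 340 TPM, so the mutant sum was 53.3% of the wild-type sum.

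The atrial genes differed less between the pools. Myl7, the atrial regulatory light chain, was at 226 and 182 TPM, a difference of −0.31. It lies at 5896637 to 5898782 of chromosome 11 on the minus strand. Myl4, the atrial essential light chain, was at 92.9 and 104 TPM, a difference of 0.16, close to the median of all genes. Sln, which encodes sarcolipin, a small atrial inhibitor of the calcium pump, was at 4.79 and 7.09 TPM, a difference of 0.48 at a low level. Of the 3 atrial genes 1 was lower and 2 were higher in the mutant pool, none by 1.5-fold, and their median was 0.16. Without Sln, the 1 atrial gene averaging under 10 TPM, the median of Myl7 and Myl4 was −0.075, so its sign rests on which genes are kept. Their sums were 323 and 293 TPM, so the mutant sum was 90.6% of the wild-type sum, with Myl7 the largest part of it.

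Ratios of partner genes within a pool do not depend on the total a library is scaled to. The pairs of an atrial or fast gene over its ventricular or slow partner were all higher in the mutant pool. These pairs were Myl7 over Myl2, Myl4 over Myl3 and Myh6 over Myh7. Myl7 stood at 0.555 per Myl2 in the wild-type pool and at 0.906 in the mutant pool, a ratio 1.63 times as high. For the essential light chains, Myl4 per Myl3 was 0.450 and 0.818, or 1.82 times as high. Sln per Pln, the sarcolipin and phospholamban pair of calcium pump inhibitors, was 0.0251 and 0.0583. Pln is counted here among the genes of all chambers, and Sln was low (4.79 and 7.09 TPM), so this is not a chamber ratio. Myh6, the fast alpha-myosin heavy chain that dominates in adult mouse atrium and ventricle alike, stood at 4.95 per Myh7 and at 8.55 in the mutant pool. Myh6 is also counted among the genes of all chambers, so Myh6 per Myh7 is a fast over slow ratio and not a chamber ratio. Reads may be divided between these 2 genes by estimate. The summed atrial genes per summed ventricular genes were 0.507 and 0.862. Pairs within 1 chamber differed as well. Myl4 per Myl7 was 0.412 and 0.570, or 1.38 times as high, and Myl3 per Myl2 was 0.508 and 0.631, or 1.24 times as high. With 1 library per genotype these changes in ratio have no error, and whether the atrial and ventricular genes differ from each other could not be tested.

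**Figure D2:**
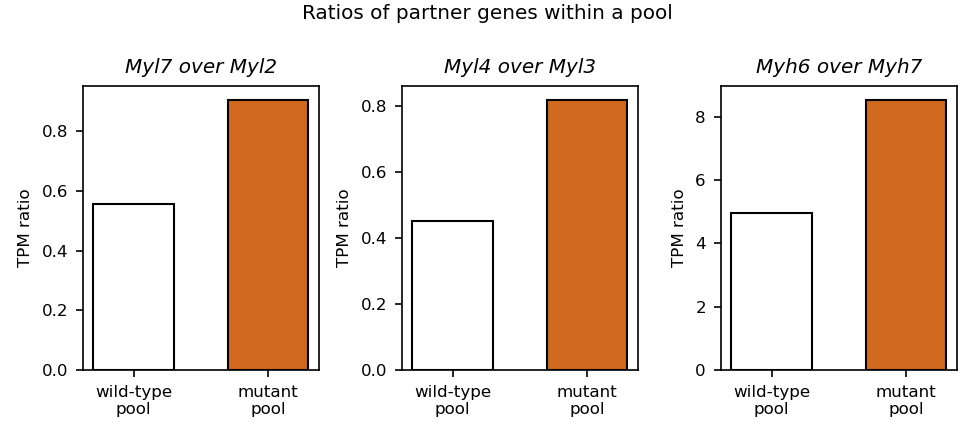
TPM ratio of an atrial or fast gene over its ventricular or slow partner (each axis starts at 0) in the wild-type pool (open bar) and the Fbn1 mutant pool (filled bar), 1 library each with no error bar. All 3 ratios are higher in the mutant pool, for Myl7 over Myl2 at 0.906 against 0.555.

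Thick filament genes used in all chambers differed little. Myh6 was at 118 and 102 TPM, a difference of −0.20. It lies next to Myh7 on chromosome 14 (Myh6 at 54941921 to 54966927 and Myh7 at 54970684 to 54994626, minus strand), and the coding sequences are so alike that reads may be divided between them by estimate. Mybpc3, cardiac myosin-binding protein C, was at 14.3 and 12.0 TPM (−0.23). Titin, the giant spring of the sarcomere, was at 78.5 and 81.3 TPM for Ttn, a difference of 0.05. That difference was −0.06 after centring on the median of genes averaging 10 TPM or more (0.11), and −0.08 after quantile normalization. The M-line genes, which tie thick filaments together, parted. Myom1 was at 13.7 and 9.24 TPM (−0.52), and Myom2 at 5.40 and 7.74 TPM (0.45). Thus 3 of these 5 genes were lower and 2 higher as deposited, with a median of −0.20.

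All 6 thin filament genes were lower in the mutant pool, with a median of −0.54, and they made up the largest sum of any role at 2407 and 1733 TPM. Tnnt2, the troponin that anchors the complex to tropomyosin, was the most abundant member in the wild-type pool at 744 TPM and was at 506 TPM in the mutant pool. Its difference was −0.56. Tnni3, the inhibitory troponin, was at 273 and 189 TPM (−0.53). Tnnc1, the calcium-binding troponin, was at 144 and 88.0 TPM (−0.71). Actc1, cardiac alpha-actin, was at 673 and 535 TPM (−0.33), which made it the most abundant member in the mutant pool. Acta1, skeletal alpha-actin, which the heart expresses more in early life and under load, was at 19.7 and 9.38 TPM (−0.997), and its ratio to Actc1 was 0.0293 and 0.0175. The mRNAs of these actins are alike in their coding part, so their split is uncertain. Tpm1, alpha-tropomyosin, was at 553 and 406 TPM (−0.45). Tpm1 is also made by fibroblasts and smooth muscle, so its level is not that of muscle alone.

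Z-disc and stretch-sensing genes were lower in 7 of 7 cases, with a median of −0.39. Csrp3, the muscle LIM protein, was at 90.8 and 52.4 TPM (−0.78). Tcap, which caps titin at the Z-disc, was at 51.5 and 34.1 TPM (−0.58). Actn2, the cross-linker alpha-actinin-2, was at 23.9 and 19.6 TPM (−0.27). Ldb3, its PDZ-domain partner, was at 21.9 and 18.8 TPM (−0.21). The difference was thus smaller for Actn2 and Ldb3 than for Tcap and Csrp3. The longest coding transcripts of Tcap and Csrp3 are also shorter (948 and 899 bases, against 3013 for Actn2 and 5119 for Ldb3). The stress-induced Ankrd1 was at 64.8 and 49.4 TPM (−0.39). Smpx, which encodes a small muscle protein, was at 7.31 and 6.51 TPM (−0.15). Xirp1, of the intercalated disc, was at 2.21 and 0.992 TPM (−0.69), too near 0 to weigh much.

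Calcium handling genes differed in both directions. Pln, phospholamban, the inhibitor of the calcium pump, was at 191 and 122 TPM (−0.65). Atp2a2, the pump itself, was at 284 and 249 TPM (−0.19). Atp2a2 is made by many cell types. Casq2, calsequestrin of the cardiac reticulum, was at 22.8 and 16.2 TPM (−0.47). Ryr2, the release channel, was at 7.71 and 7.47 TPM (−0.04). Cacna1c, the L-type calcium channel of heart and smooth muscle, was at 6.605 and 10.8 TPM (0.64), the largest positive difference among the members. The 3 potassium channel and gap junction genes differed by less than 1.5-fold. Gja1, connexin 43, which fibroblasts also make, was at 63.7 and 65.9 TPM, a difference of 0.05 that was −0.06 after centring or quantile normalization. Kcnj2, an inward rectifier, was at 4.67 and 4.14 TPM (−0.14). Gja5, connexin 40 of atrium, conduction fibres and arteries, was at 2.06 and 2.97 TPM (0.37).

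The 4 energy genes were lower together, with a median of −0.75. Fabp3, the fatty acid carrier of heart, was at 180.5 and 91.4 TPM (−0.97). Mb, myoglobin, was at 288 and 173 TPM (−0.73). Ckm, the muscle creatine kinase that regenerates ATP, was at 22.0 and 12.5 TPM (−0.76). Its mitochondrial form Ckmt2 was at 34.1 and 23.0 TPM (−0.55). Each of the 4 held between 50.6% and 67.4% of its wild-type level.

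The members include 2 cardiac transcription factors. Tbx5, a T-box factor needed for heart and limb formation, was at 55.1 and 51.5 TPM (−0.09). Nkx2-5, a defining regulator of cardiac muscle cells, was at 0.122 and 0.3597 TPM, too low in both pools to be read as a difference. It and Irx4 were the 2 lowest members in both pools, whereas Tnnt2 and Actc1 were the 2 highest.

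Transcript length moved with these values. Over all genes averaging 10 TPM or more, the median difference was −0.12 for the 595 genes whose longest coding transcript is under 1000 bases, 0.03 from 1000 to 2000 bases, 0.11 from 2000 to 4000, 0.15 from 4000 to 10000 and 0.18 above. The members, kept here from a mean of 1 TPM rather than 10, followed the same order, with a lower median than those genes in each length class. Medians of the members were −0.70 for 9 under 1000 bases, −0.55 for 7, −0.39 for 9, −0.21 for 9 and 0.05 for the 3 longest. Those 3 were Ttn, Ryr2 and Cacna1c, and Ryr2 and Cacna1c averaged under 10 TPM (7.59 and 8.73). Across the 37 members Spearman’s rho between length and difference was 0.47 (Pearson’s r 0.44 with log2 length). Across all 9463 genes averaging 10 TPM or more it was 0.16 (0.13). Both are a description over genes that share 2 libraries, at unlike abundance limits. The class under 1000 bases held Myl2 (889 bases), Myl3 (937 bases), Tnni3, Tnnc1, Csrp3, Tcap and Fabp3, which ranged from −1.01 to −0.53, and also Myl7 (590 bases, −0.31) and Myl4 (943 bases, 0.16). Of the long heavy chain transcripts, Myh7 (6230 bases) had −0.93 and Myh6 (6113 bases) −0.20. The part of length in these differences was not tested.

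**Figure D3:**
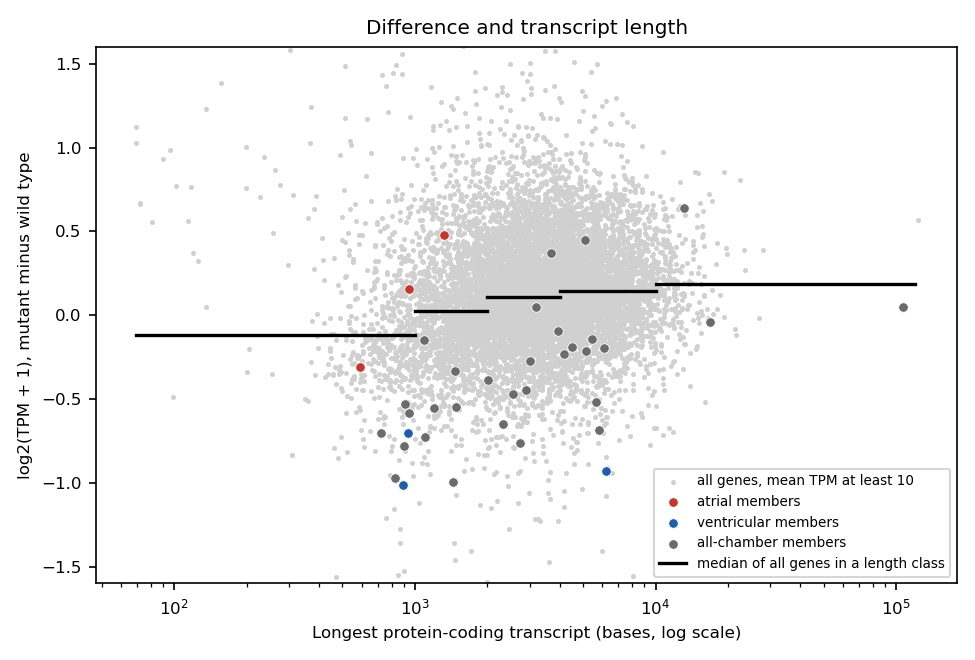
Difference on the log2(TPM + 1) scale (mutant less wild type) against the longest protein-coding transcript (bases, log axis) for genes averaging 10 TPM or more (grey; 23 lie outside the plotted range) and for members averaging 1 TPM or more (red atrial, blue ventricular, dark grey all-chamber). Black lines are medians of all genes in 5 length classes, from −0.12 to 0.18. Most members lie below the line of their class.

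The promoters of several members share a CArG box, the site of serum response factor, which drives actin and other contractile genes. The stretches below, credited to RefSeq (GRCm38.p6, the mm10 build), run from 250 to 36 bases before a RefSeq transcript start and are shown because all 4 genes hold this box and their differences ran from −0.31 for Myl7 to −0.997 for Acta1. Capitals mark the CArG box and, in Myl7, the letters GATAA. They lie at chr11:5898818-5899032 (minus strand), chr9:110763428-110763642 (plus strand), chr2:114052911-114053125 (minus strand) and chr8:123894811-123895025 (minus strand).
Myl7: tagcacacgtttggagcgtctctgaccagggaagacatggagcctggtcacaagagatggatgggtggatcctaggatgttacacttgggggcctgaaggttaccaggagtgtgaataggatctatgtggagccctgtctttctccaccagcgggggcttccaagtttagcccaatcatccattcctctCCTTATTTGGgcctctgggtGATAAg
Myl3: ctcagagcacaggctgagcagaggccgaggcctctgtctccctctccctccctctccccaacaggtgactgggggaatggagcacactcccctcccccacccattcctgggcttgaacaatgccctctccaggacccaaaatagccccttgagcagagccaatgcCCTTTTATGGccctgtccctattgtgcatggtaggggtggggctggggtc
Actc1: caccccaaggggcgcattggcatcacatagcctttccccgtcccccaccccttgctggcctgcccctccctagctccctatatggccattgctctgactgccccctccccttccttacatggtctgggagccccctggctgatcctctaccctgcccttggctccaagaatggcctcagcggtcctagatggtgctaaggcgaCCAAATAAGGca
Acta1: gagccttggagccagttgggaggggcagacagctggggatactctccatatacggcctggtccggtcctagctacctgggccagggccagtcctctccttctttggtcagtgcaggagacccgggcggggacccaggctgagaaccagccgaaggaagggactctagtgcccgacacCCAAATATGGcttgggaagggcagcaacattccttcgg

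For Myl3 and Actc1 the RefSeq start used lies inside the gene as GENCODE M21 draws it, downstream of an earlier start. For Acta1 it lies upstream of the GENCODE start. The box began 61 bases before this RefSeq start in Myl7, 85 in Myl3, 47 in Actc1 and 73 in Acta1. In the 250 bases before a start, on both strands, 6 of 33 members with a RefSeq entry held a CArG box (18.2%), against 1.62% of 27025 genes. The others were Myom1 and Ldb3. All 6 were lower in the mutant pool, with differences from −0.997 to −0.21 and a median of −0.42, close to the median of the members. The MEF2 motif was found in 3 members (9.09%, against 3.42% of genes), TATAAA in 3 (9.09%, against 14.3%) and GATAA in 11 (33.3%, against 25.5%). Where a gene has several starts a match at any of them was counted, and 6 members, Sln among them, had no entry. A match is a run of letters and does not show that a factor binds there. Srf, the gene of serum response factor, was at 10.7 and 9.38 TPM, and Myocd, its muscle partner myocardin, at 6.14 and 2.92 TPM. Both were named after their values were seen.

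Genes of cardiac muscle listed apart from the members were also lower in most cases, with a smaller median of −0.16. Of 80 with a mean TPM of at least 1, 51 (63.75%) had less TPM in the mutant pool, where 35.1% of all genes had. All 92 together took 2546 and 2329 TPM, or 91.4% of the wild-type sum. Lists outside cardiac muscle varied. The share lower was 66.7% for paralogs of the members in other cell types and 75% for endothelial markers. It was 50% for interstitial and fibroblast markers and 42.9% for smooth muscle markers. Of 28 other sarcomere and Z-disc genes 23 had less TPM in the mutant pool, with a median of −0.28. Cryab, a chaperone of desmin, was at 326 and 291 TPM, Myoz2, a Z-disc linker, at 47.9 and 33.6 TPM and the nebulin-related Nrap at 12.1 and 7.003 TPM, while Pdlim5 was at 173 and 195 TPM. Muscle-type energy genes were lower in 11 of 16 cases (median −0.25), with Cox6a2, the muscle form of a cytochrome oxidase subunit, at 117 and 66.5 TPM, the ADP/ATP carrier Slc25a4 at 196 and 161 TPM and the lipoprotein lipase gene Lpl at 107 and 81.4 TPM, but Pdk4, a brake on glucose oxidation, at 22.7 and 38.1 TPM. Calcium handling and excitation genes were split, 12 of 21 lower (median −0.05), with Popdc2 at 17.0 and 9.88 TPM, Asph at 100.1 and 96.5 TPM and the calcium channel subunit Cacna2d1 at 40.2 and 68.4 TPM. In this list Corin, the protease that activates the natriuretic peptide ANP, was the 1 gene of 21 at least 2-fold higher, at 2.17 and 5.999 TPM (named after its value was seen). Over all genes 4.81% were at least 2-fold higher, so 1 gene of 21 is near that share.

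The chamber lists outside the members were thin. Of 12 other atrial genes 10 averaged 1 TPM or more, and 8 of these were higher in the mutant pool. Of all 17004 genes of that abundance 11034 were higher, so most genes were. The median of the 10 atrial genes was 0.17, near that of all genes (0.14). Nppa, which encodes ANP and is made chiefly by atrial muscle in the adult, was at 117 and 179 TPM (0.61), and Myl1 at 4.66 and 7.80 TPM. Nr2f2, which sets atrial identity and is also made by veins and lymphatics, was at 24.2 and 21.8 TPM. Of 10 other ventricular genes only 5 averaged 1 TPM or more, and 3 were lower (60%, against 35.1% of all genes, median −0.13). Hey2 was at 20.1 and 18.3 TPM, Mpped2 at 13.7 and 11.5 TPM and Lbh at 35.6 and 38.1 TPM. Hey2 is also made by arterial endothelium. The ventricular reading therefore rests on the 3 myosin genes Myl2, Myl3 and Myh7. Conduction system genes had a median of −0.08 over 5 measured of 10, with Etv1 at 209 and 198 TPM, Cacna1g at 17.0 and 14.3 TPM and Shox2 at 5.61 and 7.50 TPM.

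**Figure D4:**
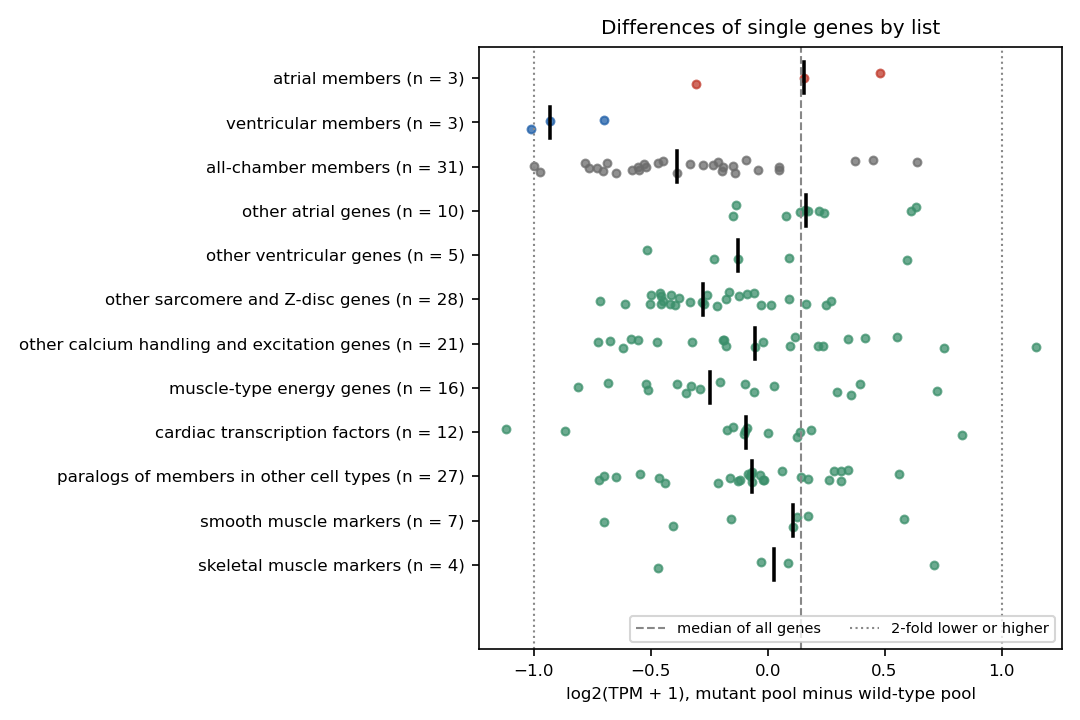
Difference on the log2(TPM + 1) scale (mutant less wild type) of single genes averaging 1 TPM or more (points), by list, with each list's median (black bar), the median of all genes at 0.14 (dashed) and the 2-fold limits (dotted). The 3 ventricular members lie between −1.01 and −0.70, and the 3 atrial members between −0.31 and 0.48.

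Muscle of other kinds was measured beside the heart genes. Skeletal muscle markers were low, with 11 of 15 averaging under 1 TPM and Myod1, Myf6 and Myh4 listed at 0 in both pools. The 15 genes summed to 15.03 and 14.3 TPM, and the highest, Casq1, was at 4.37 and 4.26 TPM. Tnnt3, the fast troponin T, was at 3.78 and 2.46 TPM. Smooth muscle markers had a median of 0.11 over 7 of 8 genes, with Acta2 at 89.9 and 102 TPM, Tagln at 32.5 and 49.2 TPM and Smtn at 47.6 and 35.7 TPM. Of 27 paralogs of the members that other cell types use, 18 were lower, with a median of −0.07, and the most abundant differed little, with Actb at 2000 and 1790 TPM and Myl6, the non-muscle essential light chain, at 612 and 583 TPM. Among them the brain-type creatine kinase Ckb (93.6 and 56.3 TPM) and the fatty acid carrier Fabp4 (23.6 and 14.7 TPM) had the lowest differences of those averaging 5 TPM or more. Other cardiac transcription factors, which valve cells share with muscle, had a median of −0.09, with Tbx20 at 703 and 1253 TPM, Mef2a at 180.1 and 199 TPM and Hand2 at 33.7 and 38.6 TPM. Prdm16 was the 1 gene of 12 measured in this list at least 2-fold lower, at 4.39 and 1.48 TPM (named after its value was seen). Over all genes 1.72% were at least 2-fold lower.

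Markers of the cells that make up most of the valve differed in both directions. Of 12 interstitial and fibroblast markers 6 were lower and 6 higher (median 0.01), while their sum, of which Mgp and Dcn are the largest parts, was 52957 and 40519 TPM, or 76.5% of the wild-type sum. Endothelial markers were lower in 6 of 8 cases (median −0.14). Red blood cell markers had a median of −3.32 and T cell markers one of −1.21, and those of neutrophils and monocytes one of 1.80. How far the makeup of each pool set the muscle values was not tested.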

How the data were processed

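RNA of mitral valve pools from 2 genotypes was amplified (Ovation RNAseq v2), made into libraries (Nextera XT) and sequenced, per the labels. Trimmomatic, HISAT2, kallisto and mm10 are named in the submitters' processing notes. Not given in the sources used here are versions, the role of each tool and how transcripts were summed to genes. The authors deposited TPM per gene symbol. Columns were matched to samples by genotype.

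Here the difference was log2(TPM + 1), mutant minus wild type, with a filter at a mean TPM of 1. With 1 library per genotype no test was run. Limits of 2-fold and 1.5-fold were used, the second added after the data were seen. The calculation was run on simulated data with set changes and no noise, which checks the arithmetic only. Members and lists were chosen with earlier results of these data known. Named genes were all members and, from each other list, the 2 most abundant and the 2 with the largest difference in size at a mean TPM of at least 5. Blood cell, endothelial and fibroblast lists are given by medians. Coordinates and transcript lengths came from GENCODE M21 (all 39 members matched), and the longest coding transcript may not be the one expressed. Motifs were searched in the 250 bases before each RefSeq start. Python 3.11.15, pandas 2.3.3 and numpy 2.4.6 were used. Alternatives are given in the closing section.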

Additional observations from a re-analysis of the deposited data

How the results depend on the processing

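The median differences of the atrial, ventricular and all-chamber members and of the other cardiomyocyte genes kept their sign over members of at least 1000 bases and under 8 other settings, but the atrial median turned to −0.075 (Myl7 and Myl4) over members averaging 10 TPM or more. The 8 settings were pseudocounts of 0.1 and 5, an abundance limit of 5 TPM or none, centring on the median of genes averaging 10 TPM or more (0.11), and quantile normalization. The others were rescaling without muscle genes or without mitochondrial, globin, ribosomal protein, Gm and Rik genes. Under these 8 settings and the length restriction the medians ran from 0.02 to 0.48 (atrial), −1.04 to −0.76 (ventricular), −0.50 to −0.25 (all-chamber) and −0.30 to −0.10 (other). Over members averaging 10 TPM or more the other 3 medians were −0.93, −0.49 and −0.20. The atrial value of 0.48 was that of Sln alone, the 1 atrial member of at least 1000 bases. The summed TPM, mutant to wild type, stayed between 0.689 and 0.714 under the rescalings, quantile normalization and without the 3 most abundant members, and the ratio of Myl7 to Myl2 was 1.57 times as high after quantile normalization. The count of members at least 2-fold lower, 1 as reported, was 3 with a pseudocount of 0.1, 0 with a pseudocount of 5, 4 after centring, 4 after quantile normalization, 3 after the last rescaling, and 0 over members of at least 1000 bases. Myl2, Acta1, Fabp3 and Myh7 lie near the limit, as does Xirp1 with a pseudocount of 0.1 (−1.08). The count at least 1.5-fold lower, 11 as reported, ran from 10 to 16 under those 8 settings and was 6 over the 28 members of at least 1000 bases, which has fewer genes. The share over all genes moved too, from 4.73% as reported to 2.11% with a pseudocount of 5. It was 6.62% after centring and 8.28% after quantile normalization, the settings with 16 members, and 3.30% over genes of at least 1000 bases. For the 2-fold limit the share over all genes, 1.72%, is given only for the main setting. The restriction on length, the limit of 10 TPM and the 1.5-fold limit were chosen after seeing the data. Of the 39 members 31 had less TPM in the mutant pool under each scaling and pseudocount, 6 more, and Gja1 and Ttn changed sign. No spread between replicates exists here, so a difference, summed TPM or ratio counted as moved when it shifted by more than 0.23 (log2). That is the median size of a difference among genes averaging 10 TPM or more. A count of members was taken as moved when the larger value was more than 1.5 times the smaller, or when only 1 of them was 0. No paired analysis was possible because each genotype has 1 library. Depth is unknown, so low values such as those of Irx4, Nkx2-5 and Xirp1 carry no interval.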
